A study of Homo sapiens with 2 samples.

Results

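The genes described here are 9 regulators, partners and transcriptional targets of the tumour suppressor p53: TP53BP1, MDM2, MDM4, SESN1, SESN2, SESN3, ZMAT3, GDF15 and BTG2. They were chosen by gene symbol among the 57773 rows of the table of all genes, and each symbol matched 1 row. RNA was sequenced from spheroids of MDA-MB-231, an established human triple-negative breast cancer line, in 1 Control library and 1 library of spheroids treated with TGS24. TGS24 is known here by its code name. The sources used here give neither its dose nor the treatment time. Both groups share the cell line and its medium, and each consists of a single library, so every difference below is one between 2 libraries, with counting error but no replicate error.

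p53 is a transcription factor held at a low level by MDM2, an E3 ubiquitin ligase that marks it for degradation, and by MDM4, a related protein that binds its activation domain. MDM2 is also a p53 target, which closes a negative feedback loop. Sestrins, ZMAT3, GDF15 and BTG2 are further genes that p53 can activate, and SESN2 and GDF15 are also induced by the stress factor ATF4. MDA-MB-231 cells are known to carry a missense mutant p53.

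Promoter sequence near annotated starts was compared with the p53 consensus element. RefSeq promoter windows on GRCh38.p14, each of 300 bases, existed for all 9 genes, 15 windows in all. They were searched for the p53 consensus, 20 bases in length and the same on both strands. It was taken as 2 half-sites of 10 bases with no spacer between them. Up to 3 mismatches were allowed at any base except the C and G of its CNNG cores. Of the 9 genes 3 held a match, MDM2, SESN1 and GDF15, against 1.37% of all 27305 genes with a window. These matches lay in 4 of the 15 windows, against 1.12% of all 35116 windows. MDM2 had 2 mismatches, a closeness found in 0.359% of all genes. The matches are shown in capitals within the bases before the start in MDM2 and SESN1, and alone in GDF15, where the match lies within the transcript.
MDM2, chr12:68808867-68809001, plus strand: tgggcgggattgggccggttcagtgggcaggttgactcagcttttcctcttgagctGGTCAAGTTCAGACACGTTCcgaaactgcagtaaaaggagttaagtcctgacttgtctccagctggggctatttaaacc
SESN1, chr6:109008989-109009138, minus strand: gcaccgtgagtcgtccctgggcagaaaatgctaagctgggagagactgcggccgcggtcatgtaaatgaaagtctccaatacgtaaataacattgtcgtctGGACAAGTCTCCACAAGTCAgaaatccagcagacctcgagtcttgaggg
GDF15, chr19:18386186-18386205, plus strand: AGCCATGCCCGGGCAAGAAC
The MDM2 stretch precedes the more downstream of its annotated start regions. A match describes letters only and does not show that p53 binds there. The search did not cover spaced half-sites, changed cores or bases outside the windows, so a gene without a match may still hold an element. An element of the ATF4 type, TGATGNAA on either strand, was in 0 of the 15 windows and in 3.62% of all windows.

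Recovered reads summed to 8570632 in Control and 16145121 in TGS24 over all regular rows, and pairs of read counts below are in that order. Of the 9 genes, 6 had at least 20 reads over both libraries, the minimum for a ratio, and ZMAT3, GDF15 and BTG2 had fewer. Among 7 measured markers of MDA-MB-231 cells, 5 (AXL, LGALS1, ANXA2, TMSB10 and MMP14) were at least 2-fold lower in TGS24, against 6.31% of all tested genes. CAV1 and EGFR, the other measured markers, were not called, at log2 ratios of -0.29 and -0.31. When centred within classes of GC content, as described below, 4 markers were lower, where 6.06% of all genes were, and MMP14 stood at -0.94. The summed level of the marker list, without VIM and CD44, went from 464 to 208 CPM, counts scaled to library size. VIM and CD44 were left out because their rows were irregular. Rounded to whole reads, VIM would stand at 1393 and 971 CPM, above that sum in both libraries, with a log2 ratio of -0.52. CD44 would stand at -0.97, and neither would be called. KRT18, another marker, had 4 and 2 reads. Luminal, fibroblast, leukocyte and endothelial markers summed to between 2.61 and 10.2 CPM in Control and between 2.09 and 6.58 in TGS24, and LUM was the single one at 0 reads, in Control. Red cell genes summed to 696 and 760 CPM, most of it from the globin gene HBB, while ALAS2, the haem synthesis gene of that list, was lower at a log2 ratio of -1.22. The part of these values in the results on p53-related genes was not tested. Fewer cells of a type and less RNA per cell cannot be told apart in such libraries.

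MDM2 was higher in the TGS24 library. It had 204 reads in Control and 865 in TGS24, or 24.2 and 53.2 CPM after scaling. At an equal level 393 reads would have been found in TGS24. The log2 ratio of TGS24 over Control was 1.13, a 2.19-fold higher level, with a 95% counting interval from 0.82 to 1.46. Calls required a log2 ratio of at least 1 in size and an interval without 0. This rule called 12.7% of 10081 genes higher and 6.31% lower, in both cases 2-fold or more. MDM2 was the single one of the 6 measured genes called higher, and its ratio exceeded that of 87.3% of all tested genes. Among genes with at least 1000 reads, as MDM2 had, 27.7% were called higher, with a median log2 ratio of 0.38. It fell short of 2-fold, at 0.97, with a minimum of 100 reads, and at 0.57 when centred within classes of GC content. Genes whose level and ratio lay nearest to those of MDM2 over the 2 libraries were JADE1 (203 and 865 reads), DENND4C (201 and 856) and TNKS (200 and 850).

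MDM4, the partner of MDM2 that lacks strong ligase activity of its own, had 43 and 123 reads. Its log2 ratio was 0.56, with an interval from -0.16 to 1.35 that held 0, and 169 reads in TGS24 would have been needed for a call. The ratio of MDM2 exceeded that of MDM4 by 0.58 on the log2 scale. The counting interval of this difference ran from -0.25 to 1.39, so a difference between the paralogues was not detectable at this depth.

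TP53BP1 encodes 53BP1, a scaffold that gathers on chromatin at DNA double-strand breaks and favours end joining. It was the most deeply read of the 9 genes, with 762 and 1640 reads. Its scaled levels of 90.2 and 101 CPM were close, with a log2 ratio of 0.16 and an interval from -0.02 to 0.34. For counting error alone and with this scaling, that interval leaves room for at most a 1.27-fold higher level in TGS24. Differences of 2-fold in either direction lie outside it. With no filter on low counts the interval ran from 0.14 to 0.50 on the log2 scale, also short of 2-fold. In GENCODE v29, exons of TUBGCP4, a gamma-tubulin complex gene on the opposite strand, overlap 28.7% of the TP53BP1 exon bases. TUBGCP4 had 142 and 467 reads and a log2 ratio of 0.77. The sources used here do not say how strand was handled, so reads in the shared bases cannot be assigned to either gene. Overlapping partners of MDM2, SESN1 and SESN3 had between 0 and 4 reads in each library.

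**Figure D1:**
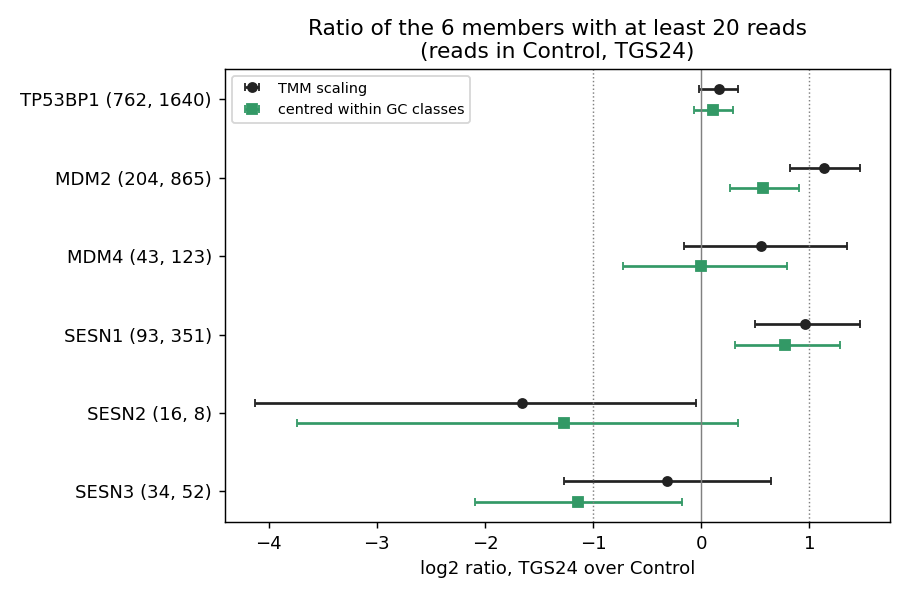
Log2 ratio of TGS24 over Control (x axis) for the 6 genes with at least 20 reads, 1 library per group, with 95% counting intervals on read pairs. Black points use TMM scaling and green squares are centred within classes of GC content, and dotted lines mark 2-fold. MDM2 moves from 1.13 to 0.57 and SESN3 from -0.32 to -1.14 with centring.

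The 3 sestrins did not share a direction. Sestrins are stress-inducible proteins that bind the GATOR2 complex and restrain the growth kinase complex mTORC1, and SESN2 is a leucine sensor. SESN1 had 93 reads in Control and 351 in TGS24, a scaled level of 11.0 and 21.6 CPM. Its log2 ratio, 0.96 (interval 0.50 to 1.47), lay just under the 2-fold threshold, where 361 TGS24 reads would have passed, while the interval left out 0. With no filter on low counts SESN1 was called, at 1.12.

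SESN2 was lower in TGS24, with 16 reads in Control and 8 in TGS24, although TGS24 was the deeper library. Equal levels would have given 30.8 reads in TGS24. The log2 ratio was -1.65, a 3.15-fold lower level, with an interval from -4.13 to -0.05. With no filter on low counts it was -1.51, and the interval then held 0. SESN2 was thus the single one of the 6 called lower, and 8 was the largest number of TGS24 reads that still passed. Among genes with 20 to 50 reads, 6.64% were called lower and 2.23% higher.

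SESN3 had 34 and 52 reads, where equal levels would have given 65.5 in TGS24. Its log2 ratio was -0.32, and the interval, from -1.27 to 0.64, held 0. The ratio of SESN1 exceeded that of SESN2 by 2.61 on the log2 scale, with a counting interval from 0.95 to 5.16. It exceeded that of SESN3 by 1.28, with an interval from 0.22 to 2.39. SESN3 and SESN2 differed by 1.34 with an interval from -0.57 to 3.98, which held 0. Thus SESN1 was set apart from both other sestrins by more than counting error, and these were not distinguishable from each other.

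The other p53 targets among the 9 genes had few reads. ZMAT3, a zinc finger protein that binds AU-rich RNA, and BTG2, an antiproliferative protein that recruits the CCR4-NOT deadenylase, both had 4 reads in Control and 14 in TGS24. With 4 Control reads, 33 TGS24 reads would have been needed for a call. The log2 ratio of each was 0.69, with an interval from -1.53 to 4.16. GDF15, a secreted stress cytokine of the TGF-beta family, had 2 reads in each library, and its interval from -7.24 to 5.35 leaves its direction unresolved. No difference in these 3 genes was detectable at this depth.

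**Figure D2:**
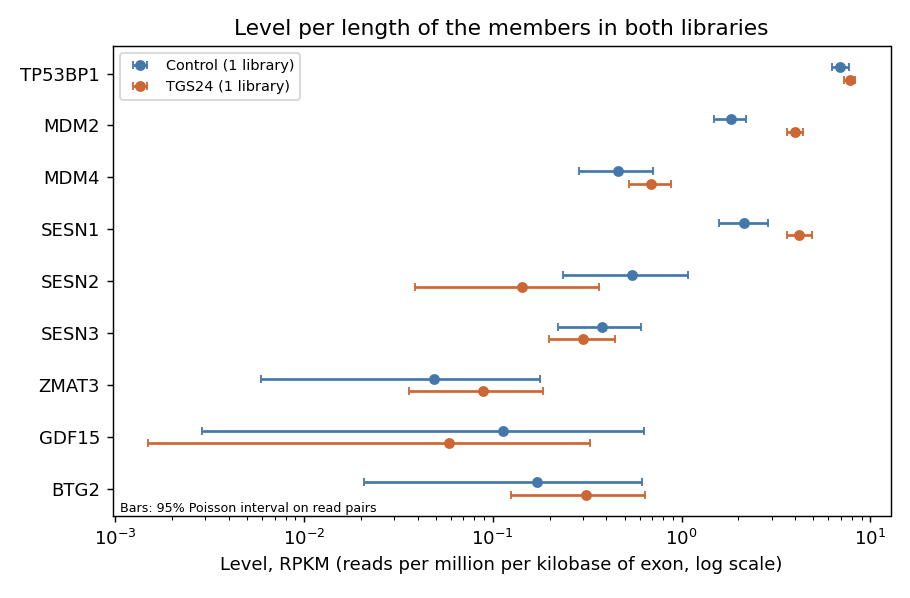
Level of each of the 9 genes in RPKM, reads scaled to library size and exon length (x axis, log scale) in the Control library (blue) and the TGS24 library (orange), with 95% Poisson intervals on read pairs. TP53BP1 is highest in both libraries at 6.95 and 7.76, and the intervals of MDM2 and of SESN1 do not overlap between libraries.

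Levels were compared between genes as RPKM, per kilobase of exon, with GENCODE v29 lengths. TP53BP1 was highest in Control at 6.95 RPKM, with a Poisson interval from 6.27 to 7.68. SESN1 at 2.15 (1.58 to 2.86) and MDM2 at 1.82 (1.48 to 2.21) came next and overlapped each other. SESN2 at 0.55 (0.24 to 1.08), MDM4 at 0.46 (0.29 to 0.70) and SESN3 at 0.38 (0.22 to 0.61) formed a lower group with overlapping intervals. BTG2 at 0.17 (0.021 to 0.62), GDF15 at 0.11 (0.0029 to 0.63) and ZMAT3 at 0.049 (0.0059 to 0.18) had the lowest values in Control. These rest on 2 to 4 reads each. The intervals of BTG2 and GDF15 overlapped those of SESN2, MDM4 and SESN3, and that of ZMAT3 did not.

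In the TGS24 library the order at the top was the same, TP53BP1 at 7.76 (7.24 to 8.31), SESN1 at 4.21 (3.61 to 4.89) and MDM2 at 4.0 (3.64 to 4.40), the last pair overlapping. MDM4 followed at 0.69 (0.53 to 0.88), above SESN3 at 0.30 (0.20 to 0.44) with no overlap of intervals, and BTG2 at 0.31 (0.13 to 0.64) overlapped both. SESN2, at 0.14 (0.039 to 0.36), stood below MDM4 in TGS24 and overlapped SESN3. TP53BP1 lay at percentile 89.9 of 17675 protein-coding genes with reads by mean level, SESN1 at 83.8 and MDM2 at 83.1. MDM4, SESN2 and SESN3 lay at 69.8, 63.8 and 63.6, and BTG2, GDF15 and ZMAT3 at 56.9, 25.7 and 19.8.

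Ratios went with the GC content of transcripts across all tested genes, which bears on every ratio above. In the class of genes lowest in GC the median log2 ratio was 0.82, and in the class highest in GC it was -0.40. MDM2 (41.9% GC) and MDM4 (42.4%) fell in a class with a median of 0.56, where 25.1% of the genes were called higher. Centred on that median, MDM2 stood at 0.57 with an interval from 0.26 to 0.90, no longer 2-fold, and MDM4 at -0.01.

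SESN1 (43.4% GC) stood at 0.77 after centring, with an interval from 0.31 to 1.28, and TP53BP1 (45.7%) at 0.11. SESN2 (59.5%), in a class where 10.7% of genes were called lower, stood at -1.27 with an interval from -3.74 to 0.34, which held 0. SESN3 (37.1%) moved the other way. In its class 36.2% of genes were called higher, and centred on the class it was at -1.14 with an interval from -2.09 to -0.18, past the threshold for a lower call. After centring, 5.49% of genes were called higher and 6.06% lower over all classes. The part of GC content in these ratios was not tested.

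**Figure D3:**
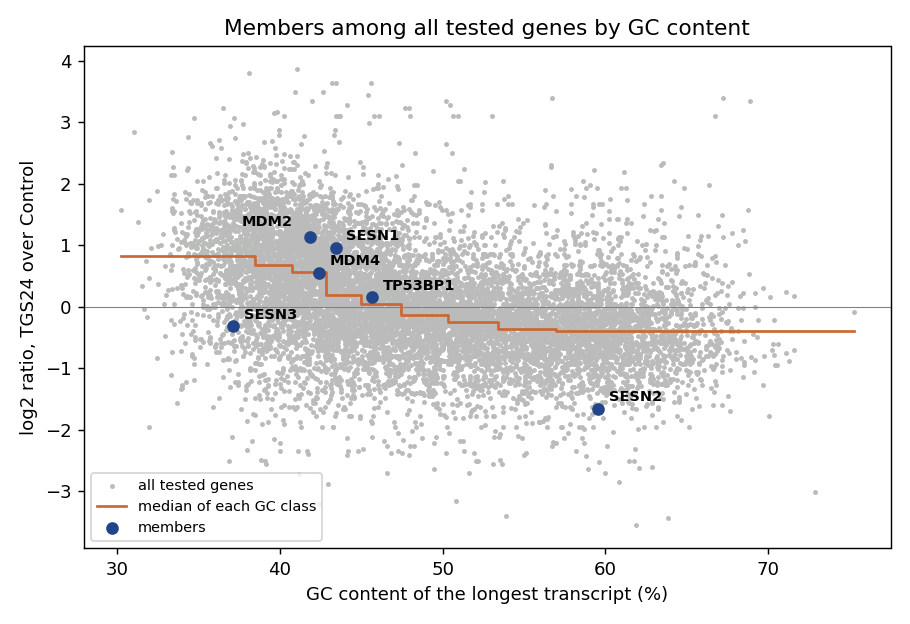
Log2 ratio of TGS24 over Control (y axis) against the GC content of the longest transcript in percent (x axis) for all tested genes (grey) and the 6 measured genes described here (blue), with the median of each of 10 GC classes (orange line). The line falls from 0.82 to -0.40, MDM4 and TP53BP1 lie close to it, and SESN3 and SESN2 lie below it.

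Of 31 modifiers and cofactors of the p53 protein, 29 were measured, and 6 of these (20.7%) were at least 2-fold higher and 1 (3.45%) lower, against 12.7% and 6.31% of all tested genes. Those background shares apply to each list that follows, and they are not matched for read depth. Over all tested genes, 2.23% were called higher at 20 to 50 reads, 18.8% at 300 to 1000 and 27.7% at 1000 or more. Lower calls were 6.64%, 3.45% and 1.95% in these classes. Most measured genes of this list had at least 300 reads. The deacetylase gene SIRT1, with 120 and 756 reads, had a log2 ratio of 1.70. The checkpoint kinase genes CHEK1, with 10 and 68 reads, ATR, with 189 and 1136, and ATM, with 131 and 621, had log2 ratios of 1.69, 1.63 and 1.29. RYBP, a Polycomb protein that binds MDM2, was at 1.45. USP7, the deubiquitinase of p53 and MDM2, was at 1.04, on 952 and 3780 reads. DAXX, an adaptor that links USP7 to MDM2, was lower at -1.06, on 112 and 102 reads. The list median was 0.42, against -0.004 for all tested genes. With centring within GC classes 2 members were higher and 0 lower, where 5.49% and 6.06% of all genes were, and the median was 0.19. The 2 higher were SIRT1, at 1.02, and EP300, at 1.25, which was not called without centring. USP7, ATR, RYBP and ATM then stood at 0.99, 0.96, 0.77 and 0.62. CHEK1 stood at 1.13 with an interval from -0.10 to 2.97, which held 0, and DAXX at -0.70.

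Among 8 genes of the p53 family and regulators of MDM2, 5 were measured. RB1, the retinoblastoma protein gene, was the single one called, 6.69-fold higher on 9 and 131 reads, with an interval from 1.56 to 4.70 on the log2 scale. It stood at 1.92 after GC centring, and the list median was 0.01.

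Other p53 targets had no common direction. Of 38 listed, 26 were measured, 11 were under 20 reads and 1 row was left out. Called higher were 3 genes, or 11.5%, below the 12.7% of all tested genes: the helicase gene ASCC3 at a log2 ratio of 1.44, the cyclin gene CCNG1 at 1.32 on 70 and 340 reads, and SUSD6, listed as KIAA0247, at 1.20. SPATA18, a regulator of mitochondrial quality, was lower at -2.33, on 16 and 4 reads, 3.85% of the list against 6.31% of all tested genes. The other 22 passed in neither direction, and the median was -0.14. With GC centring, 1 was higher and 2 lower.

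Of 18 measured partners of 53BP1 at DNA breaks, 4 (22.2%) were called higher and 0 were called lower, against 12.7% and 6.31% of all tested genes, and the list median was 0.21. RIF1, the effector that 53BP1 recruits to block end resection, was 2.71-fold higher, on 92 and 484 reads. REV3L, the catalytic subunit of DNA polymerase zeta, was 2.33-fold higher, on 480 and 2154 reads. USP28, a deubiquitinase that binds 53BP1, was 2.21-fold higher and POLA1, the catalytic subunit of DNA polymerase alpha, 2.18-fold. After GC centring RIF1 stood at 0.61, REV3L at 0.54, USP28 at 0.96 and POLA1 at 0.93, and 0 partners were called higher and 1 lower, where 5.49% and 6.06% of all genes were.

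Downstream of the sestrins, 33 of 35 measured genes of GATOR, the Rag GTPases, AMPK and mTORC1 passed in neither direction, and 0 were lower. C7orf60, which encodes the S-adenosylmethionine sensor SAMTOR, and PRKAA2, a catalytic subunit gene of AMPK, were 2.16-fold and 2.14-fold higher, on 90 and 378 and on 56 and 234 reads. Both were under 0.30 on the log2 scale after centring, and the list median was -0.12. Of 20 measured genes of the ATF4 response, EIF2AK4, the kinase GCN2 that senses uncharged tRNA, was the single one called, at a log2 ratio of 1.11 on 53 and 224 reads. Its GC-centred ratio was 1.06, and the list median was -0.23.

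In the list of BTG and TOB genes and the CCR4-NOT complex that BTG2 recruits, 4 of 17 measured members (23.5%) were called higher, against 12.7% of all tested genes. None of them was called lower, and the median was 0.28. Most of the 17 had at least 1000 reads, and 27.7% of all genes read that deeply were called higher. Of the 4 called higher, 3 encode CCR4-NOT subunits. The deadenylase gene CNOT6 was 3.26-fold higher, on 92 and 584 reads, the scaffold gene CNOT1 3.10-fold, on 2265 and 13532 reads, PABPC1, the poly(A)-binding protein gene, 2.13-fold and CNOT2 2.12-fold. CNOT6, CNOT1 and PABPC1 stood at 1.03, 1.58 and 1.34 after GC centring, and CNOT2 at 0.26. In the list of ZMAT genes and AU-rich element binders, TIA1 was 3.57-fold higher and HNRNPD 2.09-fold, of 10 measured, with 0 lower and a median of 0.26. These stood at 1.02 and 0.24 after centring.

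The list of GDF15 receptor, processing and related ligand genes had 7 measured members, of which 3 (42.9%) were lower, against 6.31% of all tested genes, and 0 higher. TGFB1, another member, was left out because its values are not whole reads and differ between the deposited tables. Rounded to 28 and 135 reads, it would be 2.43-fold higher. INHBA, the activin subunit gene, was at a log2 ratio of -2.50, on 24 and 6 reads. BMP1, a protease that processes procollagen, was at -1.57 on 756 and 490 reads, and PCSK5, a proprotein convertase, at -1.06 on 36 and 32 reads. The list median was -0.86, or -0.46 with GC centring, where PCSK5 was no longer called.

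**Figure D4:**
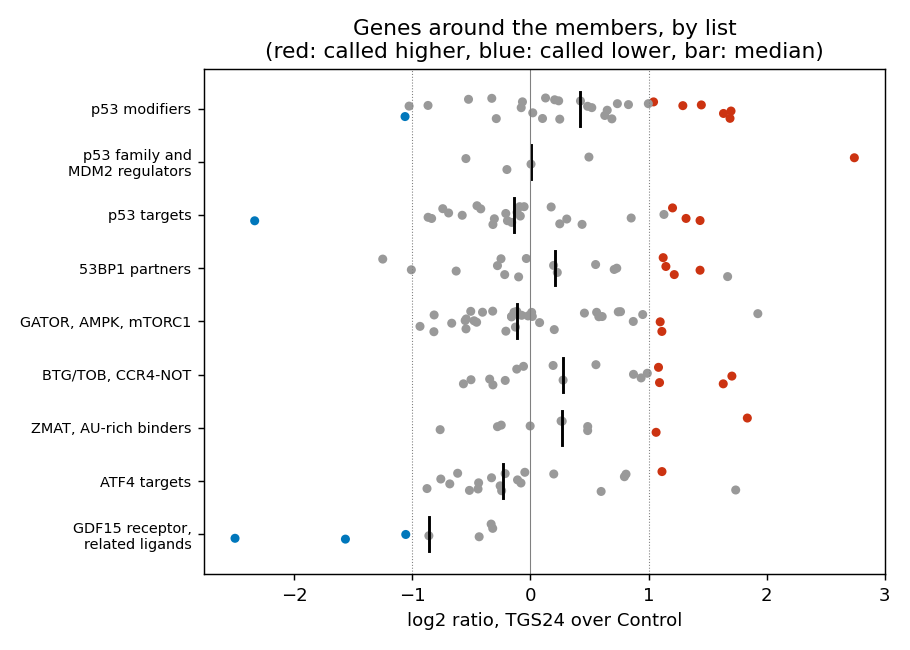
Log2 ratio of TGS24 over Control (x axis) of each measured gene in 9 lists of genes around p53, MDM2, 53BP1 and the sestrins (y axis), with a black bar at each list's median. Red points were called higher and blue ones lower, and the medians run from -0.86 for the GDF15 list to 0.42 for the p53 modifiers.

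In the authors' deposited table of filtered genes all 9 genes were listed, with log2 ratios of 1.15 for MDM2, 0.98 for SESN1 and -1.94 for SESN2. The authors' deposited table of called genes, 900 rows of which 326 were marked up and 574 down, held 0 of the 9. Its rows amount to 5.25% of the 17133 rows of the filtered table. The deposited data also give a mean plus and minus 2 SD, 2.01 and -2.15, which lie further out than the 2-fold rule used here. Called rows nevertheless reached log2 ratios as small as 0.0018 up and -0.26 down. These extremes were taken over all called rows, irregular ones included, and the number of called rows inside the limits is not given here. The rule behind the authors' calls was thus not established, and those calls were not compared with the ones made here.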

How the data were processed

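RNA from 2 MDA-MB-231 spheroid libraries, 1 Control and 1 TGS24, grouped by title, was read as 150-bp pairs, per the labels' protocols. Build hg19, the aligners STAR and Bowtie2 2.2.4, and Trimmomatic, DESeq2 and featureCounts 1.5.2 stand in the submitters' processing notes without roles. The authors deposited a normalized signal per gene, gene counts divided by 1 size factor per library (1.03 and 1.98), as read from the steps between values. In each library 99.98% of the values were whole multiples of the step (relative tolerance 1e-06) and were used as reads. The deposited ratio and log2 value are TGS24 over Control, by the authors. Rows that were repeated, out of order, not whole, or different between tables (48) were left out, with 0.676% and 0.619% of reads, and none was among the 9 genes.

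Recovered reads of genes with at least 20 reads were scaled with TMM (edgeR 4.0.16, R 4.3.3), and log2 ratios used a prior count of 2. Clopper-Pearson 95% intervals, conditional on the total of read pairs, cover counting error only. Since 75.3% and 73.5% of the counts were even, pairs were taken as the unit. With 1 library per group no test and no p-value is given. GC content (longest transcript) and exon length came from GENCODE v29 on GRCh38 by Ensembl identifier, with GC for 98.8% of tested genes. GC centring subtracted the median of each of 10 classes. Alternatives were library totals, median-of-ratios factors (DESeq2 1.42.0), the authors' scaling, other read minimums and prior counts, no small RNA genes, irregular rows kept, and intervals on reads. The steps were tested on simulated data. Named genes are all 9 genes, each list gene past the 2-fold rule (up to 8), otherwise the 3 of largest ratio, and the 3 genes nearest to each called one, which for SESN2 are not reported here. Genes and lists were chosen with earlier results of these data known, and some genes stand in more than 1 list. Python 3.11.15 with numpy 2.4.6, scipy 1.17.1, pandas 2.3.3 and matplotlib 3.10.9 was used.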

Additional observations from a re-analysis of the deposited data

How the results depend on the processing

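The calls of MDM2, SESN1, SESN2 and SESN3 changed with the read minimum or with GC centring, and with no other setting run. The interval of TP53BP1 left out 0 with library totals, with no read minimum and with intervals on reads, and its ratio was at most 0.32. That of MDM4 left out 0 with no read minimum (0.002 to 1.51) and with intervals on reads (0.059 to 1.11), without a call. With no filter on low counts, which shifts the median of all genes to 0.16, SESN1 was called at 1.12 and SESN2, at -1.51, was not. With at least 100 reads MDM2 was at 0.97, under the threshold, and 410 genes were lower. Centring within GC classes gave MDM2 0.57, SESN2 -1.27 and SESN3 -1.14, the last now called lower, and 547 genes higher.

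Lists moved under the same settings, a median by at least 0.3 or a count by over 1.5 times. With no filter, 7 CCR4-NOT list genes, 2 of the p53 family list and 4 of the GATOR list were higher, 0 p53 modifiers were lower, and the GDF15 list median was -0.18. With at least 100 reads, 2 partners of 53BP1 (median 0.56), 2 of the CCR4-NOT list, 1 AU-rich binder, 0 ATF4 genes and 0 GATOR list genes were higher, 1 GATOR list gene and 0 p53 targets were lower, and the p53 family median was 1.46. Centring gave 0 partners of 53BP1, 1 AU-rich binder, 2 p53 modifiers, 1 p53 target and 0 GATOR list genes higher, 1 partner, 0 modifiers and 2 targets lower, and medians of -0.46 for the GDF15 list and 0.31 for the p53 family. With irregular rows kept 1 GDF15 list gene was higher, and with intervals on reads 2 partners were lower and 2 ATF4 genes higher. The causes were not tested. None of the other 348 values changed a call or a count by over 1.5 times, though MDM4 moved from 0.56 to -0.01 with GC centring and SESN2 to -1.16 with a prior count of 8. ZMAT3, GDF15 and BTG2 were limited by depth. No paired analysis was possible because each group holds 1 library.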
